A study of Mus musculus with 9 samples.

Results

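The ISG15 system was described through 5 genes in mouse melanoma cells: Isg15, which encodes the ubiquitin-like modifier, Uba7, Ube2l6 and Herc6, which encode the enzymes that attach it to proteins, and Usp18, which encodes the protease that removes it. They were taken by name from a table of raw counts, each matched 1 Ensembl gene, and they were 5 of 55487 genes listed. All 5 passed the filter on low counts that left 15237 genes to be tested. Isg15, Uba7, Ube2l6 and Herc6 passed it in all 3 libraries of every group, and Usp18 passed only through the libraries with interferon gamma (IFNγ).

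RNA was sequenced from B16F10 cells, an established mouse melanoma line, after 6 h in 1 of 3 conditions, with 3 libraries in each. The first group was kept in medium alone, the second received IFNγ at 50 ng/mL, and the third received IFNγ at 50 ng/mL together with FK866 at 50 nM. FK866 inhibits NAMPT, the enzyme that recycles nicotinamide into NAD. No library had FK866 without IFNγ, so the effect of FK866 alone was not measured. The libraries of every group carry the numbers Control 3, Control 4 and Control 5. The labels do not say what these numbers stand for or whether the libraries came from separate cultures. Every p-value here therefore speaks only of how these 9 libraries vary, and that variation may be technical. The protocol allows for mouse or human IFNγ without saying which a library received. It gives a catalogue entry only for the mouse protein.

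ISG15 is a small protein of tandem ubiquitin-like domains that interferons induce in most cell types. It is joined to lysines of other proteins by a chain of enzymes of the ubiquitin kind: UBA7 activates it, UBE2L6 carries it, and a ligase transfers it, a role held by HERC6 in mice. USP18 cuts ISG15 from its targets and, apart from that activity, binds the type I interferon receptor subunit IFNAR2 together with STAT2 and dampens signalling from that receptor. IFNγ acts mainly through GAS elements, while type I interferons act through a complex that holds STAT2 and IRF9 and binds ISRE elements. IRF1, itself induced by IFNγ, can also bind ISRE elements.

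Library totals ran from 15317003 to 18466972 counts. The 7 melanocyte markers summed to between 14982 and 19023 CPM (counts scaled to a common library size) in each library. With IFNγ, edgeR called 1 of the 7 lower, beside 0.499% of all genes (with the block 3, beside 6.14%). The called gene was Mitf, a transcription factor of melanocytes, at 807 ± 68.4 CPM in medium and 335 ± 60.5 CPM with IFNγ (SD, n = 3 each). Its part in the members' results was not tested. Of 12 leukocyte markers 9 had 0 counts in all 9 libraries, and the 12 summed to between 3.38 and 11.7 CPM. Libraries of the same Control number deviated together from their group means, with correlations across genes of 0.593 to 0.759 for the 9 same-number pairs. The number was therefore also fitted as a block, and its values are given where they changed a call or a count. In these bulk RNA samples, fewer cells of a type and less RNA per cell cannot be told apart.

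Isg15 lies on chromosome 4 of GRCm38, from 156199424 to 156200818 on the minus strand, with 1 annotated transcript of 2 exons (GENCODE M21). The other 4 genes lie on the plus strand: Uba7 on chromosome 9 from 107975505 to 107984060, Ube2l6 on chromosome 2 from 84798828 to 84810335, and both Herc6 (57581000 to 57664632) and Usp18 (121245906 to 121270917) on chromosome 6. All 5 are annotated as protein-coding. The 250 bases before the annotated start of Isg15, at chr4:156200819-156201068 on the minus strand (RefSeq, GRCm38.p6), are shown because they hold the only match to the ISRE letters GAAANNGAAA among the 4 members with a window in the table, Isg15, Uba7, Ube2l6 and Herc6. The capitals mark 3 overlapping matches.

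Isg15, upstream 250 bases: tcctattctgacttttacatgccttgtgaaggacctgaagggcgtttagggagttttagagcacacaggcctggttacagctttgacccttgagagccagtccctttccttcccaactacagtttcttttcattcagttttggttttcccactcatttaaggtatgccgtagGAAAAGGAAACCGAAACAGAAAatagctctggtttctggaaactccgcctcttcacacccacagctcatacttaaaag

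The 3 matches begin 78, 72 and 66 bases before the start, all on the strand of the gene, and the last ends 57 bases before it. The ISRE letters were searched on both strands and stood in 2.98% of 32851 upstream windows of 250 bases in the RefSeq table. The GAS letters TTCNNNGAA stood in 7.02% of the same windows and in none of those of these 4 members. The windows of Uba7, Ube2l6 and Herc6 held neither set of letters as written, and Usp18 was not searched. A setting added after the data were seen allowed 1 of the 8 fixed letters to differ. Uba7 then had 2 overlapping matches 27 to 12 bases before its RefSeq start. Its window, chr9:107975317-107975566, runs past the GENCODE M21 start of Uba7 at 107975505, so these matches lie inside the gene as annotated there. Herc6 had 1 match from 197 to 188 bases before its RefSeq start, while Ube2l6 had none. That looser search matched 31.4% of all windows. A match describes letters only and shows no binding.

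All 5 genes rose after 6 h of IFNγ, from 3.6-fold for Herc6 to 21.5-fold for Usp18. Each passed edgeR's quasi-likelihood test with Benjamini-Hochberg adjustment across all genes, against 2.8% of the 15237 genes called higher. In each gene every library with IFNγ was above every medium library, an arrangement seen in 7.97% of genes. The same 5 of 5 were called higher with IFNγ and FK866 against the same medium libraries, where 2.76% of genes were called higher. Usp18 entered these tests only through libraries with IFNγ, and the 5 genes were chosen with earlier results of these data known. These counts therefore describe the 5 genes and are no independent support. The comparison asks what IFNγ changes in these cells.

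**Figure D1:**
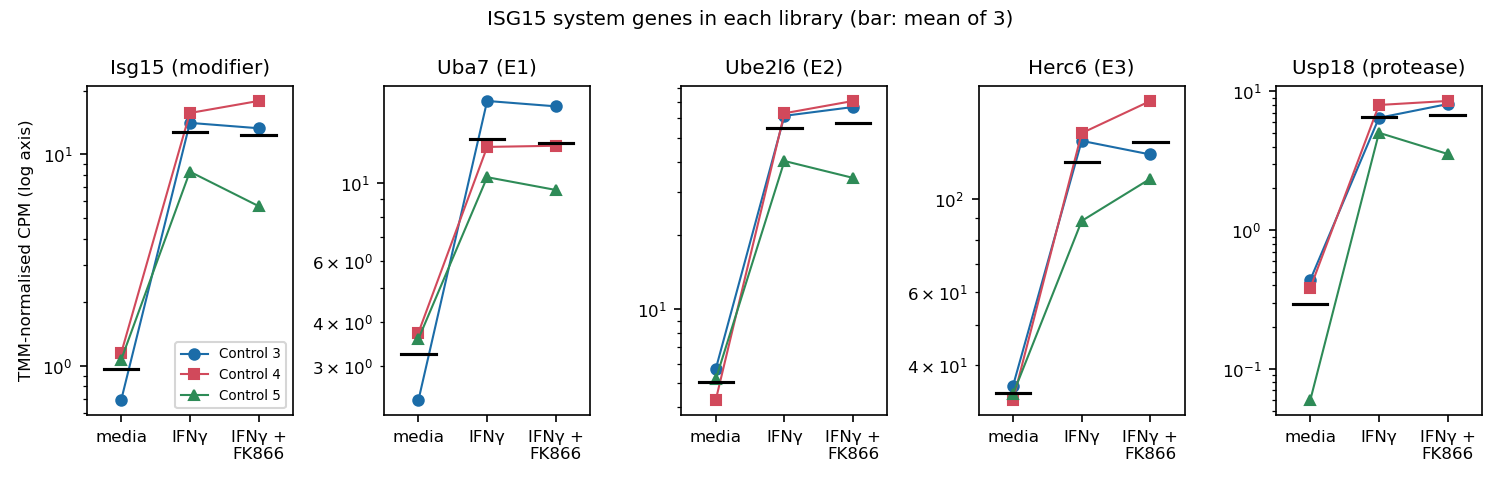
Levels in CPM of the 5 genes in each of the 9 libraries (points; log axes that differ between panels) in medium, IFNγ and IFNγ with FK866; coloured lines join libraries of the same Control number and black bars are group means. In every gene the 6 libraries with IFNγ lie above the 3 medium libraries, with Usp18 lowest in medium at 0.0597 CPM and Herc6 highest at 172 CPM.

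The modifier itself, Isg15, was low in medium, at 0.69, 1.15 and 1.07 CPM in the libraries numbered 3, 4 and 5. With IFNγ it reached 14.1, 15.7 and 8.29 CPM, and with IFNγ and FK866 13.3, 17.9 and 5.7 CPM. Number 5 was the lowest library in both IFNγ groups and not in medium. The medium values rest on 11, 21 and 18 counts. The group means were 0.972 ± 0.247 CPM in medium and 12.7 ± 3.9 CPM with IFNγ (SD, n = 3 each). The fitted rise with IFNγ was 3.69 on the log2 scale (SE 0.46, 12.9-fold, edgeR adjusted p = 0.00137).

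Uba7, the activating enzyme and the first step of conjugation, had 2.39, 3.73 and 3.58 CPM in medium. IFNγ brought it to 17.2, 12.7 and 10.4 CPM, and IFNγ with FK866 to 16.6, 12.8 and 9.56 CPM. Here number 3 was lowest in medium and highest in both IFNγ groups. Its log2 fold change with IFNγ was 2.05 (SE 0.29, 4.13-fold, edgeR adjusted p = 0.00287). Exons of Uba7 share 233 bases, 3.5% of its exon length, with Gm20661 on the same strand. Gm20661 had 210, 220 and 150 counts with IFNγ against 219, 327 and 121 in medium, so the overlapping gene did not show the same pattern.

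Ube2l6, the carrier enzyme, started at 5.71, 4.27 and 5.19 CPM in medium. It stood at 61.4, 62.9 and 40.2 CPM with IFNγ and at 66.7, 70.6 and 34.3 CPM with IFNγ and FK866. As for Isg15, number 5 was lowest in both IFNγ groups while the medium libraries lay close together. The log2 fold change with IFNγ was 3.44 (SE 0.3, 10.8-fold), with the smallest adjusted p of the 5 genes (edgeR, 0.000121).

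Herc6, the ligase, was the most abundant of the 5 in medium by CPM, with 35.7, 33 and 34.1 CPM. Its values were 138, 144 and 88.7 CPM with IFNγ and 128, 172 and 112 CPM with IFNγ and FK866. The medium libraries had a mean of 34.3 ± 1.35 CPM (SD, n = 3). Herc6 had the smallest log2 fold change of the 5 with IFNγ, 1.85 (SE 0.21, 3.6-fold, edgeR adjusted p = 0.000645). Its exons overlap Gm45193, on the same strand, over 1269 bases, 13.7% of their length, and Gm45193 had 0 counts in every library. Whether reads of these shared bases were counted for Herc6 cannot be told from the counts.

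Usp18, the protease, had few counts in medium, 7, 7 and 1 counts or 0.439, 0.383 and 0.0597 CPM. With IFNγ it had 6.45, 7.98 and 5.03 CPM, and with IFNγ and FK866 8.1, 8.53 and 3.54 CPM. Its log2 fold change with IFNγ was the largest of the 5 and also the least precise, 4.43 (SE 0.55, 21.5-fold, edgeR adjusted p = 0.0013). The single count in medium number 5 makes its ratio within that number 84.3, with a 95% interval from counting alone of 14.7 to 3370. Usp18 shares 124 exon bases with Gm44148, a lincRNA on the opposite strand, which had 3, 8 and 8 counts in medium and 31, 29 and 23 with IFNγ. Whether the authors' counting used strand is not given in the sources used here, so reads of the shared stretch cannot be told apart between them.

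Among all 15237 genes ordered by their rise with IFNγ, Usp18 ranked 109, Isg15 133, Ube2l6 137, Uba7 246 and Herc6 282. With IFNγ and FK866 against medium the log2 fold changes were 3.65 for Isg15, 2 for Uba7, 3.5 for Ube2l6, 2 for Herc6 and 4.48 for Usp18, with edgeR adjusted p from 0.000105 to 0.00318. These values share the medium libraries with those for IFNγ alone. Leaving out any single library kept all 5 calls for IFNγ against medium, the largest edgeR adjusted p being 0.0151, for Uba7. Leaving out the 3 libraries of number 4 ended the calls of Isg15 (edgeR adjusted p = 0.0639), Uba7 (0.137) and Usp18 (0.115), and leaving out those of number 3 ended that of Isg15 (0.0631), with 2 libraries a group remaining.

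Per kilobase of exon, the levels of the 5 genes stood in the same order in all 3 medium libraries, and in other orders with IFNγ. In medium Herc6 was highest at 3.69 ± 0.145 CPM per kb (SD, n = 3), followed by Ube2l6 at 2.53 ± 0.365, Isg15 at 1.29 ± 0.326, Uba7 at 0.483 ± 0.11 and Usp18 at 0.105 ± 0.0735. With IFNγ Ube2l6 was highest at 27.5 ± 6.35 CPM per kb, then Isg15 at 16.8 ± 5.16, Herc6 at 13.3 ± 3.25, Usp18 at 2.33 ± 0.528 and Uba7 at 2 ± 0.518. Ube2l6 was the highest in each of the 3 libraries with IFNγ, though its lowest library overlapped the highest of Isg15. The ranges of Isg15 and Herc6 overlapped, though Isg15 was above Herc6 within each of the 3 libraries with IFNγ alone. With IFNγ and FK866, Herc6 was above Isg15 in number 5 (12.1 against 7.54 CPM per kb). Usp18 and Uba7 also overlapped with IFNγ alone, and their order differed between the 3 libraries of that group.

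**Figure D2:**
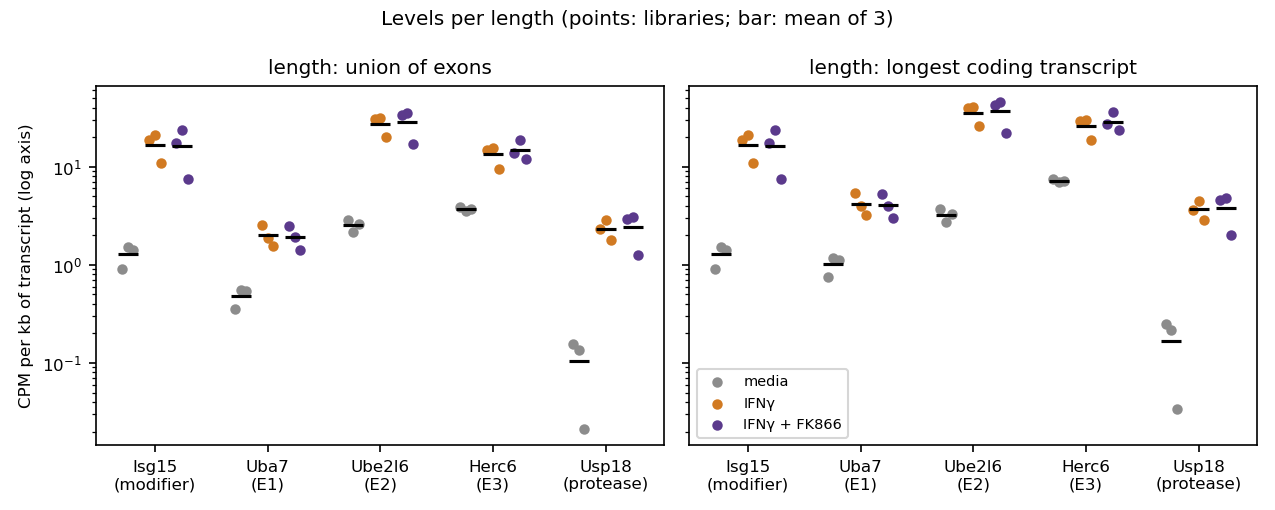
Level in CPM per kb (log axis) of the 5 genes in medium, IFNγ and IFNγ with FK866, with the union of exons as length on the left and the longest coding transcript on the right; points are libraries and bars are means of 3. Herc6 is highest in medium, with a mean of 3.69, and Ube2l6 is highest with IFNγ, with a mean of 27.5, both on the left panel.

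Of the summed level per kilobase of the 5 genes, Herc6 made up 44.5 to 47.3% in the medium libraries and 21.3 to 21.7% in those with IFNγ alone. Ube2l6 went from 27.1 to 35.2% in medium to 43.5 to 45.8% with IFNγ alone, and Isg15 from 11.2 to 19.2% to 24.9 to 28.7%. With IFNγ and FK866, numbers 3, 4 and 5 had 19.6, 22.4 and 30.6% for Herc6 and 47.6, 42.9 and 43.5% for Ube2l6. Isg15 had 25.1, 28.7 and 19.1% in these libraries, so its share in number 5 lay within its medium range. Uba7, the first enzyme of the chain, stayed the smallest or next to smallest share, at 2.61 to 3.72% with IFNγ. With the longest coding transcript as the length, a setting added after the data were seen, Herc6 stood above Isg15 with IFNγ (25.9 against 16.8 CPM per kb) and Uba7 above Usp18 (4.2 against 3.66). The series text names a droplet platform. If reads came only from the ends of transcripts, division by length does not apply and the CPM values stand on their own.

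With FK866 added to IFNγ, the range of the libraries overlapped that of IFNγ alone in all 5 genes. Some libraries lay outside that range, such as Isg15 at 5.7 and 17.9 CPM against 8.29 to 15.7 CPM with IFNγ alone. The log2 differences from IFNγ alone were -0.04 for Isg15 and Uba7, 0.06 for Ube2l6, 0.16 for Herc6 and 0.05 for Usp18, each with an edgeR adjusted p of 1. No gene of the 15237 was called in this comparison, 0%, by edgeR's quasi-likelihood test, DESeq2 or limma-voom. In edgeR 88 had an unadjusted p under 0.05, fewer than that threshold would bring with no difference at all. This fit leaves the differences between numbers in its spread, so its p-values here were conservative. With the number as a block 3 genes were called, 0.0197%, none of them a member. The smallest unadjusted p among the members was 0.45, for Herc6, and 0.113 with the block.

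In the main edgeR fit, which has no block, the 95% intervals for the log2 difference were wide. They were -0.91 to 0.83 for Isg15, -0.64 to 0.56 for Uba7 and -0.54 to 0.66 for Ube2l6. Herc6 had -0.29 to 0.6 and Usp18 -0.9 to 1.01, and changes within these intervals could have gone unseen. The blocked fit gave narrower intervals, but what the number stands for is not known. Its 95% intervals for the log2 difference were -0.46 to 0.26 for Isg15, -0.39 to 0.3 for Uba7, -0.19 to 0.26 for Ube2l6, -0.04 to 0.37 for Herc6 and -0.41 to 0.41 for Usp18. A p that misses the threshold does not show that FK866 left these genes alone. Within the numbers the ratios of IFNγ with FK866 to IFNγ lay on both sides of 1 for all 5 genes. For Isg15 they were 0.943, 1.14 and 0.687 in numbers 3, 4 and 5, and for Usp18 1.25, 1.07 and 0.702. Ube2l6 had 1.09, 1.12 and 0.853, with number 5 lowest as in Isg15 and Usp18. Herc6 differed in having its highest ratio in number 5, with 0.929, 1.2 and 1.27. For Uba7 the ratios were 0.968, 1.01 and 0.922, each with a counting interval that included 1. The interval excluded 1 for Isg15 and Usp18 in number 5 (0.52 to 0.904 and 0.49 to 0.999), for Ube2l6 in numbers 4 (1.03 to 1.22) and 5 (0.76 to 0.958), and for Herc6 in all 3 numbers. Counting intervals cover counting error only, and at 1 library per number these ratios have no replicate check.

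**Figure D3:**
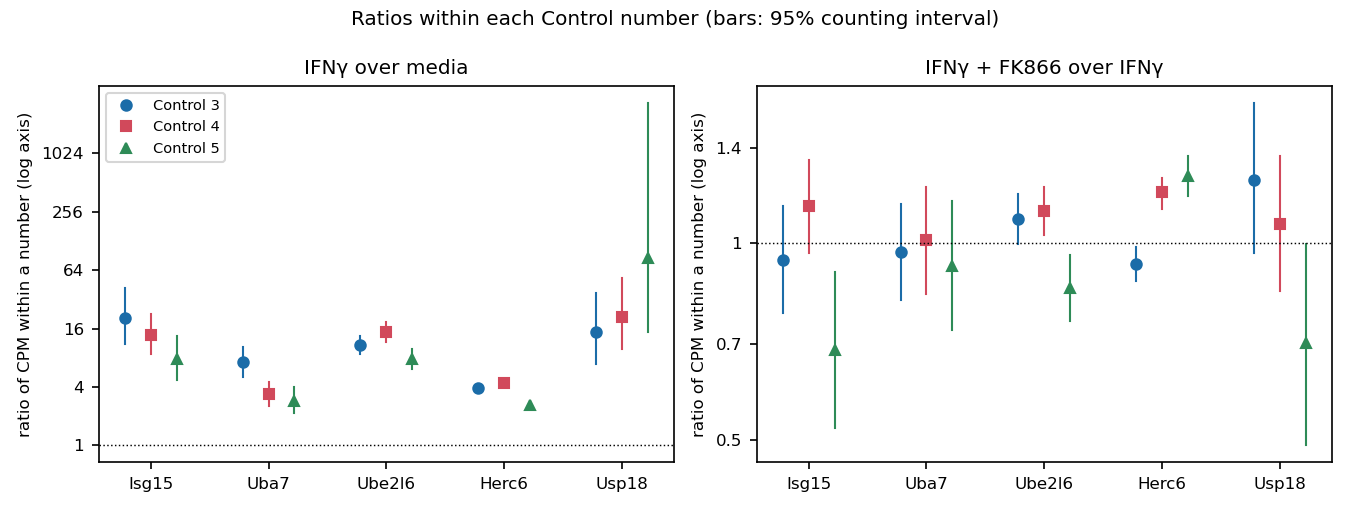
Ratio of CPM between 2 libraries of the same Control number for the 5 genes (log axes), IFNγ over medium on the left and IFNγ with FK866 over IFNγ on the right; bars are 95% counting intervals. All 15 ratios on the left lie above 1, from 2.6 to 84.3, and those on the right lie between 0.687 and 1.27.

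The Control numbers also differed within the conditions. Averaged over the 3 groups, number 5 was lower than number 3 in all 5 genes, where 21.1% of all genes were called lower and 42% were called either way. The log2 differences were -0.8 for Isg15 (edgeR adjusted p = 0.00388), -0.5 for Uba7 (0.033), -0.69 for Ube2l6 (0.000174), -0.31 for Herc6 (0.0206) and -0.85 for Usp18 (0.0101). Against number 4, number 5 was lower in 4 of 5, where 15.9% of genes were called lower and 31.1% either way: Isg15 by -1.13 (edgeR adjusted p = 0.000283), Ube2l6 by -0.69 (0.000303), Herc6 by -0.46 (0.00194) and Usp18 by -1 (0.00431). Uba7 had -0.28 there, with an edgeR adjusted p of 0.268. Between numbers 4 and 3 none of the 5 was called by edgeR, none had an unadjusted p under 0.05, and limma-voom called none, beside 31% of all genes called either way. Without the medium group Uba7 (-0.41, edgeR adjusted p = 0.0217) and Herc6 (0.24, 0.0219) were called between numbers 4 and 3.

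Leaving out a group changed these calls. Without the IFNγ group, number 5 against 3 kept its call only for Ube2l6 (edgeR adjusted p = 0.00487) and Usp18 (0.0143), and without the IFNγ with FK866 group only for Ube2l6 (0.0173) and Herc6 (0.0236). In medium alone number 5 was not the lowest library for Isg15, Uba7, Ube2l6 or Herc6, and it was the lowest for Usp18 at 1 count. By limma-voom the call of number 5 against 3 was lost for Isg15 (adjusted p = 0.0634) and Usp18 (0.22).

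The size of the response by number was tested directly, with the libraries with IFNγ and with IFNγ and FK866 of a number pooled as exposed libraries. Each number has 1 medium library, so the test assumes that it varies as the exposed libraries do. Its p-values and intervals rest on the spread between the exposed libraries of a number. That spread leaves 3 residual degrees of freedom for a gene, and edgeR also draws on the spread shared across genes. The ratios of IFNγ to medium in numbers 3, 4 and 5 were 20.4, 13.7 and 7.72 for Isg15, and 7.2, 3.4 and 2.89 for Uba7. For Ube2l6 they were 10.7, 14.7 and 7.74, and for Herc6 3.86, 4.35 and 2.6. Number 5 was lowest in these 4 genes, and for Usp18, with its 1 count, it was highest. No member passed edgeR's test of the difference in response, where between 0.131% and 0.637% of all genes did: 0.243% for number 4 against 3, 0.637% for 5 against 3 and 0.131% for 5 against 4. The smallest edgeR adjusted p were 0.0647 for Uba7 (5 against 3, log2 difference -1.35, 95% interval -2.06 to -0.63), 0.0931 for Ube2l6 (5 against 4, -1.12, -1.66 to -0.59) and 0.112 for Herc6 (5 against 4, -0.7, -1.05 to -0.35). Limma-voom called none of the 5 after adjustment in any of these comparisons. Without the filter on low counts edgeR called Uba7 (5 against 3, adjusted p = 0.0383), Ube2l6 (5 against 4, 0.016) and Herc6 (5 against 4, 0.00185). Leaving out 1 library also brought calls: Uba7 (5 against 3) without IFNγ number 5 (edgeR adjusted p = 0.0339), Ube2l6 (5 against 4) without IFNγ number 3 or 5 or IFNγ with FK866 number 3 (0.0243 to 0.0382), and Herc6 (5 against 4) without IFNγ number 3 or 4 or IFNγ with FK866 number 3 or 5 (0.00425 to 0.0373).

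Among the partners of the system a small number rose. Of 14 genes listed as other ligases, proteases reported to act on ISG15, partners of Usp18 and the receptor of secreted ISG15, 11 were tested. With IFNγ 3 were called higher and 0 lower by edgeR, beside 2.8% higher and 0.499% lower of all genes. Their median log2 fold change was 0.05, beside -0.01 over all genes. Trim25, a ligase of the interferon response, rose by 2.79 (SE 0.52, edgeR adjusted p = 0.017), from 7.34, 20.7 and 17.1 CPM to 52.3, 158 and 103 CPM. Number 3 was lowest in Trim25 in every group. Stat2, which USP18 uses to reach the receptor, rose by 4.04 (SE 0.27, edgeR adjusted p = 1.5e-05), and Ifnar2, the receptor subunit it binds, by 1.09 (SE 0.16, adjusted p = 0.00397). Ifnar2 went from 31.9, 27.3 and 24.8 CPM to 69.9, 57.7 and 51.2 CPM. With the block, where 14.3% of all genes were called (8.12% higher and 6.14% lower) instead of 3.3%, 4 of the 11 were called higher, adding the ligase Arih1. Usp13 had 0 counts, and Itgal and Itgb2, subunits of the receptor LFA-1, did not reach the filter.

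Genes of the other ubiquitin-like systems were not called between IFNγ and medium. None of 34 tested genes for the ubiquitin, SUMO, NEDD8, UFM1, URM1, autophagy and FAT10 systems was called by edgeR with IFNγ, with or without the block. Their log2 fold changes ran from -0.17 to 0.16, with a median of 0.01, while the 5 members ran from 1.85 to 4.43. None had an unadjusted p under 0.05 in edgeR (2 with the block), and neither DESeq2 nor limma-voom called any. With IFNγ and FK866 against medium edgeR called none, and 2 higher with the block, where 8.53% of all genes were. Between Control numbers 4 and 3, 8 of the 34 were called higher and 6 lower by edgeR, beside 31% of all genes called either way. The listed E2 closest in name to Ube2l6, Ube2l3, and the E1 enzymes Uba1 and Uba6 were among those not called. Ubd, which encodes the modifier FAT10, had 16 counts in all 9 libraries together and 0 in medium, too few to test. The other HERC ligases Herc1, Herc2, Herc3 and Herc4 had log2 fold changes of -0.09 to 0.23, none called by edgeR, DESeq2 or limma-voom and none with an unadjusted p under 0.05 in edgeR. With the block Herc4 was called higher (0.23, edgeR adjusted p = 0.0285).

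Of 20 genes whose proteins have been reported as ISG15 targets, 6 were called higher with IFNγ and 0 lower by edgeR, beside 2.8% and 0.499% of all genes, with a median log2 fold change of 0.04. The 6 are themselves interferon-induced genes. Ifit3 rose by 4.9, Ddx58, which encodes the RNA sensor RIG-I, by 3.4, Ifih1, which encodes MDA5, by 3.32, Ifit1 by 3.21, the GTPase gene Mx1 by 2.87 and Eif2ak2, which encodes the kinase PKR, by 1.94. Their edgeR adjusted p ran from 5.32e-07 for Ifit3 to 0.019 for Ifit1. The other 14, among them Jak1 (0.43, edgeR adjusted p = 0.129) and Irf3 (0.2, adjusted p = 1), were not called. With the block 7 were called higher, adding Jak1, and 1 lower, Plcg1, beside 8.12% and 6.14% of all genes, and limma-voom called 4 higher.

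**Figure D4:**
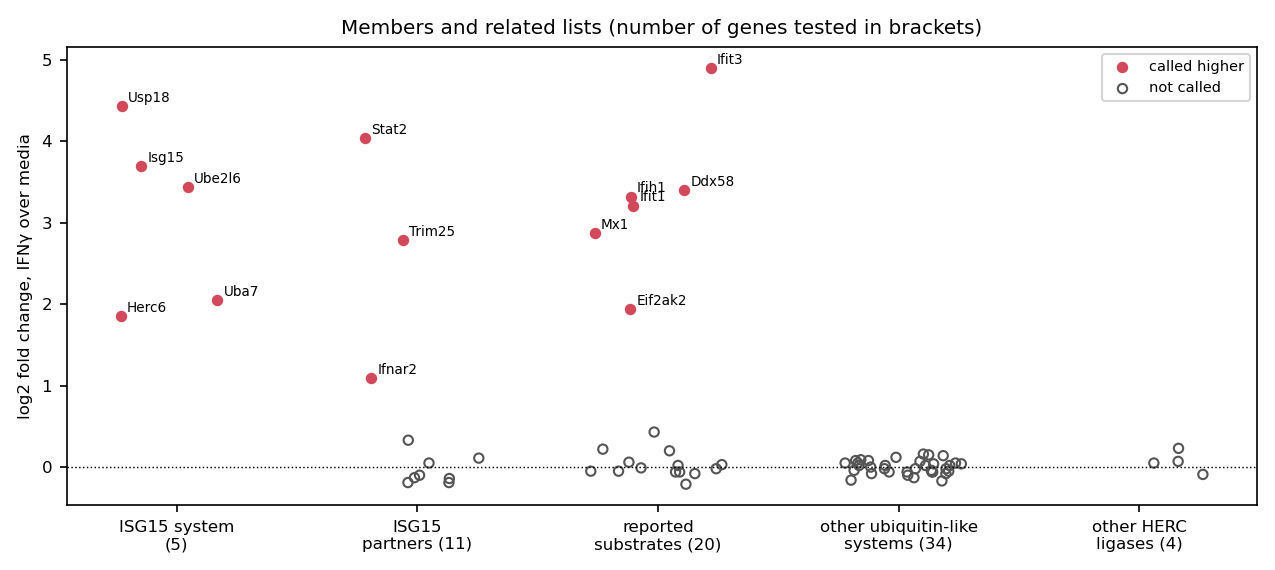
Log2 fold change with IFNγ against medium for the 5 genes and for the lists of partners, reported targets (substrates), other ubiquitin-like systems and other HERC ligases; each point is a tested gene, filled where the edgeR adjusted p was below 0.05 and open where it was not, with horizontal spread only to separate points. The 34 genes of the other ubiquitin-like systems lie between -0.17 and 0.16, and the 5 members between 1.85 and 4.43.

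Of 13 regulators of interferon signalling, all were tested and 9 were called higher with IFNγ by edgeR, beside 2.8% of all genes, and 8 by limma-voom. Their median log2 fold change was 3.75. Irf1 rose from 20.6, 17.3 and 14 CPM to 762, 826 and 773 CPM. In Irf1 the 3 numbers were close together with IFNγ, number 5 included. Stat2 had 214, 196 and 124 CPM with IFNγ and Irf9 64.5, 59.8 and 45.8 CPM, with number 5 lowest in both. Irf8 had 0 counts in medium and was at least 417-fold higher with IFNγ, taking 3 counts over the medium group as the floor. The rest of the 9 were Irf2 (1.8), Irf7 (4.86), the kinase gene Jak2 (0.86) and the feedback inhibitors Socs1 (6.44) and Socs3 (4.18), given as log2 fold changes, and Jak1, Ifngr1, Ifngr2 and Tyk2 were not called. With the block 10 were called higher, adding Jak1, and 1 lower, Ifngr2, beside 8.12% and 6.14% of all genes.

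Transcripts of interferons themselves were at or near 0 counts. Of 21 interferon genes listed, 18 had 0 counts in all 9 libraries and none was tested. A count of 0 allows up to 0.156 to 0.198 CPM, depending on the library, counting error only. Ifna4 had 1 count and Ifnz had 6 in all 9 libraries together. Ifnab had 6, all in IFNγ number 3, and in that group this library was the highest for Uba7 and not for the other 4 members. A link between Ifnab and the members was not tested. Between IFNγ with FK866 and IFNγ, edgeR called no gene of any of these lists, with or without the block, and neither did DESeq2 or limma-voom. At an unadjusted p under 0.05 edgeR had 0 of them, and 1 with the block.

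Likeness of pattern was measured over 6 log2 ratios, each of the 6 libraries with IFNγ against the medium library of its number (CPM + 0.5), as the root mean square difference from the member, among 10372 genes. These ratios share their medium libraries and the measure is a description. The added 0.5 CPM lowers the ratios of genes with few counts in medium: the mean log2 ratio of Usp18 was 3.14 on this scale and that of Isg15 3.06, below their fitted 4.43 and 3.69, and no other added value was tried. Nearest to Isg15 were Parp12 (0.22), Erap1 (0.48) and Ifih1 (0.51), and nearest to Uba7 were Helz2 (0.27), Samhd1 (0.3) and Gadd45g (0.37). Nearest to Ube2l6 were Gm12216 (0.33), Parp10 (0.37) and Psmb10 (0.39), and nearest to Usp18 were Psmb10 (0.18), Mras (0.23) and Parp10 (0.28). Psmb10 had means of 5.31 CPM in medium and 55.7 CPM with IFNγ, and Usp18 had 0.294 and 6.49 CPM. A small difference on this scale is therefore not the same as an equal fold change. Herc6 had the closest neighbour of all, Rnf213 (0.16), followed by Kazn (0.24) and Bcl3 (0.25). Rnf213 encodes a large ubiquitin ligase, and Psmb10 a subunit of the immunoproteasome. Among the members the smallest differences were between Isg15 and Ube2l6 and between Ube2l6 and Usp18 (0.41 each). Uba7 and Herc6 differed by 0.56, and each of them differed from Isg15, Ube2l6 and Usp18 by 1.26 to 1.55.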

How the data were processed

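The deposited table holds raw counts per Ensembl gene made by the authors, for 9 libraries of poly(A) RNA. Per the submitters' processing notes the tools were cutadapt 1.16, STAR 2.7.6a, featureCounts 1.6.3 and DESeq2 1.30.1, and the builds GRCm38 and mm10. Neither the strand setting nor the annotation release of the counting is stated there. Of 55487 genes, 55141 matched GENCODE M21, which gave names, positions and lengths, and 28707 had 0 counts everywhere. The series text names a droplet platform, but the table holds no values per cell and was treated as bulk.

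Counts were scaled by TMM and tested with edgeR 4.0.16 (quasi-likelihood, R 4.3.3) over all 9 libraries, after a filter on low counts (a CPM above that of 10 counts in the median library, 0.574, in 3 libraries) that kept 15237 genes. A call is a Benjamini-Hochberg adjusted p below 0.05. CPM values were computed from the TMM-scaled library sizes. The 5 genes and all lists were chosen with earlier results of these data known, and 1 gene of the lists is not reported here. Named genes are the 5, called or uncalled genes of the lists, the 3 genes nearest in pattern to each of the 5, and genes overlapping them. Same-number libraries deviated together (r 0.593 to 0.759 over 9 pairs, -0.509 to -0.14 over 18 pairs of different numbers), so the number was also fitted as a replicate block. The numbers themselves were compared with group as a covariate, and the response by number as an interaction. DESeq2 1.42.0, limma-voom (limma 3.58.1), other scalings, no filter and left-out libraries were alternatives. The procedure was tested on simulated data. Library totals were 15317003 to 18466972 counts, and on the TMM-scaled sizes 3 counts are worth 0.156 to 0.198 CPM.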

Additional observations from a re-analysis of the deposited data

How the results depend on the processing

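The rise of the 5 genes with IFNγ kept its direction and its call in 91 of 95 recalculations, and so did the rise with IFNγ and FK866. Most of these used edgeR, and DESeq2 and limma-voom were among them. The 4 exceptions in each left out all libraries of a number. Over the left-out libraries and numbers the log2 rise of Isg15 ran from 3.43 to 4, of Uba7 from 1.66 to 2.29 and of Usp18 from 3.96 to 4.81 with IFNγ. With IFNγ and FK866 these ranges were 3.28 to 4.08, 1.63 to 2.27 and 4.02 to 4.85. For the same recalculations the counts of all genes called higher and lower ran from 148 to 420 and 6 to 68 with IFNγ, and from 147 to 406 and 4 to 75 with IFNγ and FK866.

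With the replicate block, which takes up the pairing by number, 1237 genes were called higher and 936 lower with IFNγ, 1299 and 1160 with IFNγ and FK866, and 2 and 1 between the treatments. The block changed no call of the 5 genes. DESeq2 called 157 and 169 genes lower in the comparisons with medium, against 76 and 91 by edgeR, and a fit to only the groups compared called 59 lower for IFNγ with FK866. For these counts and for those below the cause was not tested.

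The differences between IFNγ with FK866 and IFNγ changed sign in 16 of 95 recalculations and were never called. Usp18 had 0 with the block. Over left-out libraries and numbers the log2 difference ran from -0.42 to 0.3 for Isg15, -0.26 to 0.18 for Uba7, -0.12 to 0.32 for Ube2l6, -0.04 to 0.3 for Herc6 and -0.15 to 0.36 for Usp18.

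For number 5 against 3, limma-voom no longer called Isg15 (-0.88) and Usp18 (-0.83), nor Usp18 against number 4 (-1). Without the IFNγ group the calls of number 5 against 3 were lost for Isg15 (-0.73), Uba7 (-0.29) and Herc6 (-0.13), and against 4 for Herc6 (-0.32). Without the IFNγ with FK866 group they were lost against 3 for Isg15 (-0.51), Uba7 (-0.31) and Usp18 (-0.57), and against 4 for Ube2l6 (-0.42) and Usp18 (-0.8). For number 4 against 3, Uba7 (-0.41) and Herc6 (0.24) were called without the medium group. Ube2l6, at 0 there, had 0.03 by limma-voom and 0.06 without the medium group, and Herc6 had -0.01 without the IFNγ with FK866 group. Without the IFNγ group the genes called higher and lower fell to 1391 and 1362 for number 4 against 3 and to 1125 and 1184 for 5 against 4, and those called higher for 5 against 3 to 2036. These group omissions were chosen after seeing the data, except that of medium.

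For the response by number, dropping the filter on low counts brought calls for Uba7 (5 against 3, -1.34), Ube2l6 (5 against 4, -1.12) and Herc6 (5 against 4, -0.7). All genes called higher and lower were then 94 and 33 for number 4 against 3, 145 and 97 for 5 against 3, and 22 and 32 for 5 against 4. By limma-voom 4 were called higher and 3 lower for 4 against 3, 31 higher for 5 against 3 and 4 higher for 5 against 4. With 1 library left out, also chosen after seeing the data, the log2 difference ran from -1.42 to -1.29 for Uba7 (5 against 3), -1.26 to -1.01 for Ube2l6 and -0.88 to -0.56 for Herc6 (both 5 against 4). The gene counts then ran from 2 to 51 higher and 4 to 21 lower (4 against 3), 25 to 176 and 37 to 194 (5 against 3), and 2 to 20 and 6 to 25 (5 against 4).

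With the longest coding transcript as length, the levels in medium and with IFNγ were 1.01 and 4.2 CPM per kb for Uba7, 3.24 and 35.1 for Ube2l6 and 7.19 and 25.9 for Herc6, and Usp18 had 3.66 with IFNγ. With 1 changed letter allowed, 3 of the 4 genes searched had ISRE letters. Depth limits Usp18 and Isg15 most, since their medium values rest on 1 to 7 and 11 to 21 counts.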

Other observations

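The genes around the ISG15 system did not follow the Control numbers in 1 way. Stat2 was lower in number 5 than in number 3 by -0.65 on the log2 scale (edgeR adjusted p = 6.53e-06) and Irf9 by -0.43 (0.00214), the direction seen in the 5 members. Irf1 had -0.11 (edgeR adjusted p = 0.318) in the same comparison and was not called. Trim25 was higher in number 5 than in number 3 by 1.01 (edgeR adjusted p = 2.35e-09) and lower than in number 4 by -0.51 (1.41e-05).

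Irf7, a regulator of type I interferon genes, differed most by number among these genes. It had 3.95, 14.2 and 4.5 CPM with IFNγ in numbers 3, 4 and 5 and 2.9, 14.5 and 4.39 CPM with IFNγ and FK866, so number 4 stood highest in both groups. In medium it had 0.126, 0.438 and 0.179 CPM, with number 4 highest there as well. Number 5 was lower than number 4 by -1.67 (edgeR adjusted p = 5.23e-06). Number 4 was also the highest library of both IFNγ groups for Isg15, Ube2l6, Herc6 and Usp18, and not for Uba7. None of the 5 was called by edgeR between numbers 4 and 3 over all groups, where Isg15 had the largest log2 difference, 0.33 (edgeR adjusted p = 0.21).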
